A study of Ursus arctos with 12 samples.

Results

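The hypoxia-inducible factors (HIFs) are transcription factors through which cells respond to low oxygen, and the 10 genes described here encode their subunits and direct regulators. They were taken by symbol from the count table, in which each symbol has its own row, and are 10 of the 30249 genes listed: the alpha subunits HIF1A, EPAS1 and HIF3A, the beta subunit ARNT, the prolyl hydroxylases EGLN1, EGLN2 and EGLN3, the ubiquitin ligase subunit VHL, the asparaginyl hydroxylase HIF1AN and the coactivator competitor CITED2. All 10 passed the filter of 30 reads over the libraries, so none is missing from the 17290 genes tested.

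When oxygen is plentiful, EGLN enzymes hydroxylate prolines of the alpha subunits, VHL recognises the hydroxylated protein, and the alpha subunit is degraded. HIF1AN hydroxylates an asparagine in the transactivation domain and thereby blocks the binding of the coactivators EP300 and CREBBP. When oxygen is scarce these reactions slow down, and the alpha subunit pairs with ARNT and switches on genes of glycolysis, vessel growth and iron handling. Control of HIF1A and EPAS1 lies largely in protein stability, which mRNA counts do not measure.

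The mRNA was sequenced from the vastus lateralis, a thigh muscle, of 6 free-ranging brown bears (Ursus arctos) aged 2 to 3 years. Each bear gave a biopsy in winter, during hibernation, and another in summer, during its active period, so the 12 libraries form 6 pairs. The animals were captured and anaesthetised in both seasons, and season is the only factor that the groups were chosen by. Libraries held 16742406 to 32140160 reads on genes, and the summed level of 13 myofibre markers was 123700 to 205129 CPM (read counts scaled to library size, with TMM factors) in summer and 133015 to 174950 in winter, which fits the labelled tissue.

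In winter, HIF3A, CITED2, EGLN1 and ARNT rose and EPAS1 and HIF1AN fell, while HIF1A, VHL, EGLN2 and EGLN3 did not pass the test. The largest change was that of HIF3A, 6.99-fold higher, and the smallest that passed was that of ARNT, 1.21-fold higher. Genes were compared in edgeR (quasi-likelihood test), p was adjusted over all 17290 genes after Benjamini and Hochberg, and a gene was called where the adjusted p lay under 0.05. By this rule the test called 6 of 10, with 4 higher and 2 lower, against 39.5% of all genes tested (19.6% higher and 19.9% lower). When the adjusted p had to lie under 0.01 and the fold beyond 1.3 or 0.77, 4 of 10 were called, against 24% of all genes. The median size of the log2 fold change, sign ignored, was 0.54 for the 10 genes and 0.46 for all genes. Whether the 10 genes differed from genes at large was not tested.

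**Figure D1:**
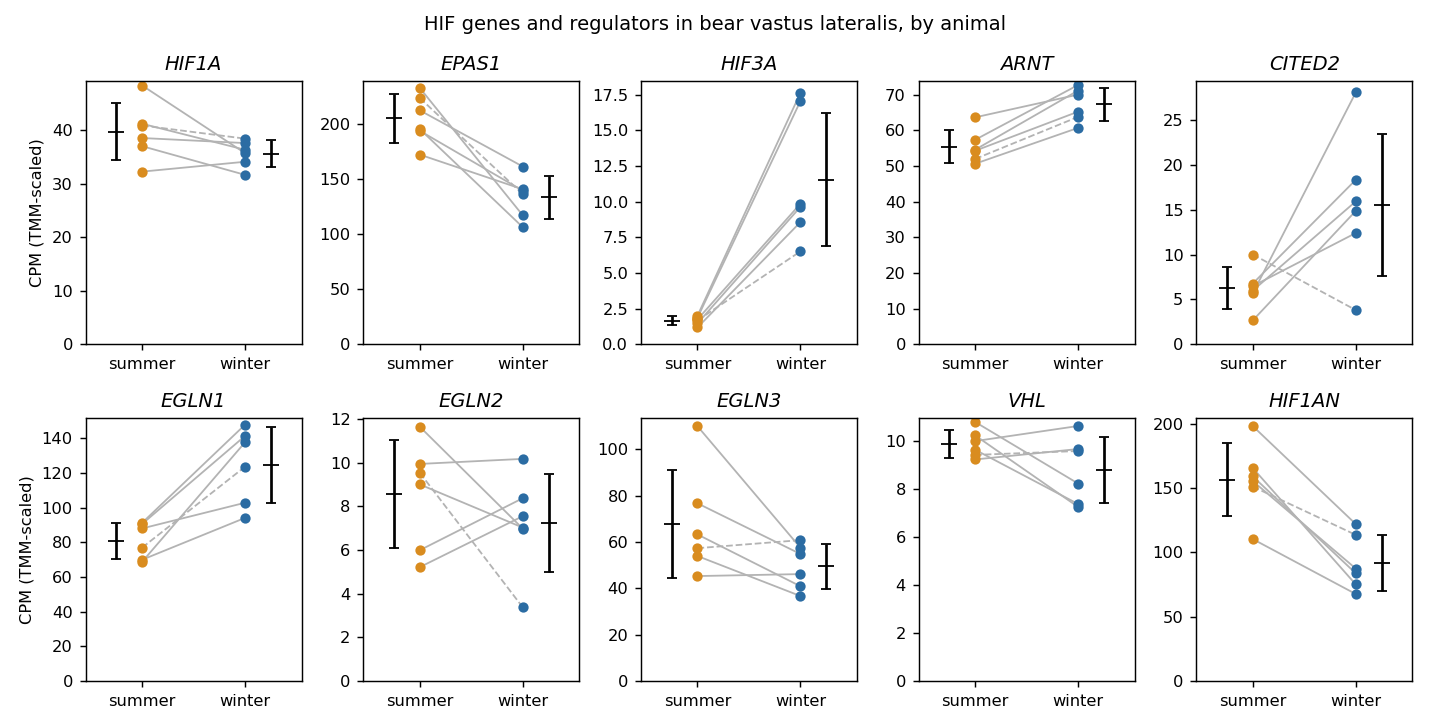
Level of each gene in CPM (vertical axis, TMM-scaled) in summer (orange) and winter (blue), with a line for each bear, dashed for bear 1509, and the mean ± SD of 6 bears in black. EPAS1, HIF3A and EGLN1 show no overlap between the seasons, and in CITED2 and EGLN2 the dashed line of bear 1509 runs down to the lowest winter value.

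HIF1A encodes the widely expressed alpha subunit. Its level lay between 32.3 and 48.4 CPM in summer (median 39.8) and between 31.7 and 38.5 CPM in winter (median 36.1). The winter values thus fell almost wholly inside the summer range, and 5 of 6 bears were lower in winter. The log2 fold change was −0.16 ± 0.10 (SE, the standard error of the fit; adjusted p = 0.235), and its 95% confidence interval, −0.37 to 0.06, bounds any winter increase at 1.04-fold and any decrease at 0.772-fold. HIF1A was not called under any of the 15 alternative fits.

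EPAS1 encodes the alpha subunit known from endothelium, lung and the renal cells that make erythropoietin. In summer it was counted at 172 to 233 CPM (median 204) and in winter at 106 to 161 CPM (median 138). Every winter library lay below every summer library, and the decrease was seen in 6 of 6 bears, and the bears spanned −0.99 to −0.29 in log2 units. EPAS1 fell from 205 ± 22.2 to 134 ± 19.4 CPM (SD, n = 6 bears), in log2 terms a change of −0.62 ± 0.11 (SE, adjusted p = 8.45e-04), and it was called in 15 of 15 alternatives.

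Endothelial markers were lower in winter in sum, as were those of pericytes and smooth muscle, fibroblasts, macrophages and adipocytes, each in 6 of 6 bears. The summed level of the 12 endothelial markers tested was 611 to 886 CPM in summer and 433 to 512 CPM in winter, lower in 6 of 6 bears. Among them 6 were called lower, including VWF and CDH5, and 2 higher, ERG and CLDN5, with a median log2 fold change of −0.46 against −0.0021 over all genes. Without bear 1509 the count called lower was 3 rather than 6, and without bear 1305, 1317, 1511 or 1512 the count called higher was 1. Pericyte and smooth muscle markers were also lower in sum, at 526.1 to 664.9 CPM in summer and 292 to 371 CPM in winter. In edgeR 4 of 9 were called lower and 0 higher. DESeq2 called 5 lower and 0 higher, and the unadjusted p under 0.05 gave 7 lower and 0 higher. The pericyte count called lower was 7 without bear 1305 and with library totals, and 3 without bear 1509 or 1511. The part of these cells in the result for EPAS1 was not tested. In such bulk libraries, fewer cells of a type and less RNA per cell cannot be told apart.

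HIF3A encodes an alpha subunit with splice forms that restrain the others, and its mRNA was the scarcest of the 3 by reads. Summer libraries held 30 to 50 reads of HIF3A, or 1.17 to 2.00 CPM (median 1.70), and winter libraries 118 to 406 reads, or 6.51 to 17.6 CPM (median 9.74). The lowest winter level was thus more than the highest summer level in any bear, and the winter libraries of bears 1316 and 1511 stood highest, at 17.1 and 17.6 CPM. HIF3A rose from 1.65 ± 0.295 to 11.5 ± 4.65 CPM (SD, n = 6 bears), in log2 terms a change of 2.80 ± 0.26 (SE, adjusted p = 7.49e-06). The rise was found in 6 of 6 bears, from 1.91 to 3.14 on the log2 scale, and in all 15 alternatives. Ranked by p, HIF3A stood at place 59 of the 17290 genes, and by the size of the rise at place 291. The counts do not separate splice forms, so which form rose was not measured.

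ARNT encodes the beta subunit, the partner that alpha subunits share. Its level lay at 50.6 to 63.7 CPM in summer (median 54.4) and 60.7 to 72.7 CPM in winter (median 67.7), with a small overlap between seasons. ARNT was higher in winter in 6 of 6 bears, by 0.14 to 0.38 on the log2 scale, with a log2 fold change of 0.28 ± 0.085 (SE, adjusted p = 0.0182). This small change is the least firm of the 6 calls: the adjusted p was 0.158 when counts were scaled by library totals alone, 0.0760 without bear 1305 and 0.0505 without bear 1512, and it lay between 0.00290 and 0.158 over the alternatives.

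**Figure D2:**
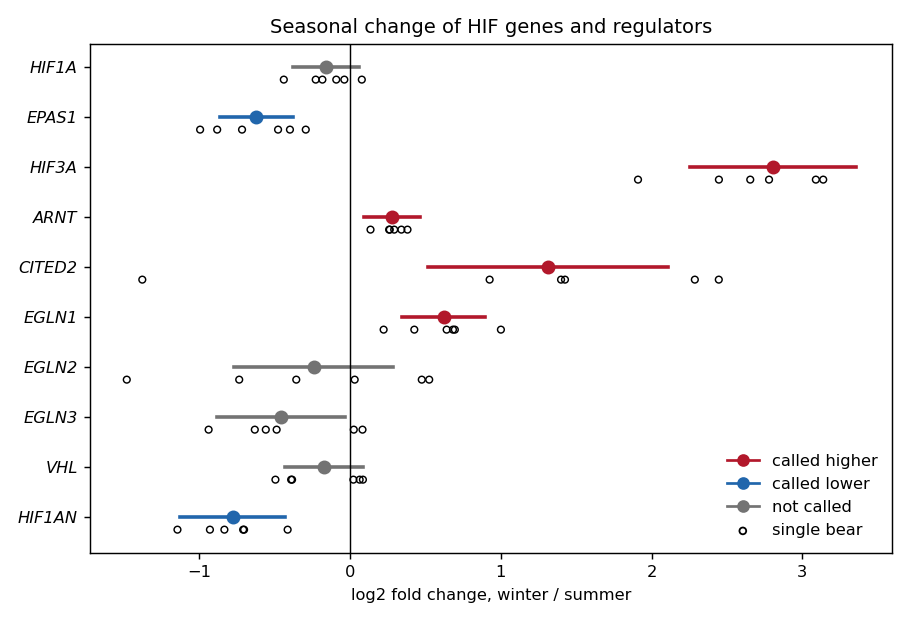
Winter/summer log2 fold change of each gene (horizontal axis) with its 95% confidence interval, coloured by call, and the difference of each bear as an open circle below. HIF3A stands apart at 2.80, and CITED2 has the widest spread between bears, from −1.37 to 2.45.

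Of the prolyl hydroxylases, EGLN1 was higher in winter, while EGLN2 and EGLN3 had negative fold changes that did not pass the test. EGLN1 encodes the enzyme regarded as the main oxygen sensor in most cells. It was counted at 68.8 to 91.3 CPM in summer (median 82.5) and 94.1 to 148 CPM in winter (median 131), again without overlap between the seasons. EGLN1 rose from 80.9 ± 10.3 to 125 ± 21.9 CPM (SD, n = 6 bears), in log2 terms a change of 0.62 ± 0.13 (SE, adjusted p = 0.00184), in 6 of 6 bears and in 15 of 15 alternatives.

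EGLN3, itself a HIF target in many cell types, ranged from 45.3 to 110 CPM in summer (median 60.3) and from 36.7 to 60.8 CPM in winter (median 50.5). The seasons overlapped widely, and the summer libraries spread far, with that of bear 1512 highest. The log2 fold change was −0.45 ± 0.20 (SE, adjusted p = 0.0827), lower in 4 of 6 bears. With the bear as a replicate block, which called 40.8% of all genes, EGLN3 was called lower, at −0.42 ± 0.14 (SE, adjusted p = 0.0366), and so it was by DESeq2 when blocked (adjusted p = 0.0248). Without the block it was called in none of the other 13 alternatives, where its adjusted p reached 0.178.

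EGLN2 was the scarcest hydroxylase by reads, with 61 to 257 per library. It lay at 5.21 to 11.6 CPM in summer (median 9.26) and 3.37 to 10.2 CPM in winter (median 7.28), so most winter values fell within the summer range. Its log2 fold change of −0.24 ± 0.25 (SE, adjusted p = 0.461) had a 95% interval from −0.76 to 0.29, and 3 of 6 bears were lower. The winter library of bear 1509 was the lowest, at 3.37 CPM where the other winter libraries held 6.97 to 10.2 CPM. Without that library the log2 fold change was −0.09.

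VHL encodes the subunit that recognises hydroxylated HIF. In summer its level was tightly held, at 9.25 to 10.8 CPM (median 9.84), and in winter it ran from 7.27 to 10.6 CPM (median 8.92). Bears split evenly, 3 higher and 3 lower, and VHL was not called at a log2 fold change of −0.17 ± 0.12 (SE, adjusted p = 0.284). The 95% interval, −0.43 to 0.09, still allows a decrease to 0.742-fold.

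HIF1AN, the asparaginyl hydroxylase that limits coactivator binding, was lower in winter. It was counted at 110 to 198 CPM in summer (median 157) and 67.5 to 122 CPM in winter (median 85.4). The ranges met only through the summer library of bear 1316, the lowest of its season, and the winter libraries of bears 1509 and 1512, the highest of theirs. Within each bear the difference was clear, with 6 of 6 lower by 0.41 to 1.14 on the log2 scale. HIF1AN fell from 157 ± 28.2 to 91.5 ± 21.6 CPM (SD, n = 6 bears), in log2 terms a change of −0.77 ± 0.16 (SE, adjusted p = 0.00205), and it was called in 15 of 15 alternatives.

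CITED2 encodes a protein that competes with HIF alpha subunits for EP300 and CREBBP, and it is induced by HIF in turn. It lay at 2.66 to 10.01 CPM in summer (median 6.24) and 3.81 to 28.1 CPM in winter (median 15.4). In 5 of 6 bears it was higher in winter, by 0.93 to 2.45 on the log2 scale, whereas in bear 1509 it was lower by 1.37. CITED2 rose from 6.27 ± 2.36 to 15.6 ± 7.92 CPM (SD, n = 6 bears), in log2 terms a change of 1.31 ± 0.37 (SE, adjusted p = 0.0124). Without bear 1317, whose winter library was the highest, the adjusted p was 0.0586, the only 1 of 15 alternatives that ended the call.

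The winter library of bear 1509 was also the lowest of its season for HIF3A, at 6.51 CPM against 8.56 to 17.6 in the other winter libraries. In this library the summed level of 6 nervous system markers was 135 CPM, where the other winter libraries held 6.90 to 25.4 CPM, and that of the myofibre markers was the lowest of the winter libraries. Leaving out this library alone moved CITED2 to a log2 fold change of 1.52 (adjusted p = 7.98e-04) and HIF3A to 2.92, and the 6 calls were kept. What sets the library apart was not tested.

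Over the 10 genes, 3 had winter and summer levels that did not overlap, against 17.3% of all genes (9.12% with winter higher and 8.21% with winter lower), and in 5 all 6 bears moved alike, against 37.4% of all genes. The 3 without overlap were EPAS1, HIF3A and EGLN1.

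The balance between paralogs within a library does not depend on scaling, so 4 read ratios were compared between seasons by two-sided exact permutation tests over the 12 libraries. Gene length does not enter the seasonal difference, although it enters the ratios themselves. Reads of EPAS1 outnumbered those of HIF1A by 4.39 to 6.05 times in summer (median 5.24) and by 3.11 to 4.51 times in winter (median 3.62). On the log2 scale this ratio shifted by −0.48 (exact permutation p = 0.00649, adjusted over the 4 ratios p = 0.00866, n = 6 per season), and it was lower in 5 of 6 bears. That test does not use the pairing by bear. Exact sign flips of the 6 paired differences gave p = 0.0625 for this ratio before adjustment.

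The reads of HIF3A relative to HIF1A went the other way. Their ratio was 0.0322 to 0.0583 in summer (median 0.0415) and 0.170 to 0.4997 in winter (median 0.271), a shift of 2.87 on the log2 scale that was positive in 6 of 6 bears. The exact permutation p was 0.00216 (adjusted p = 0.00433, n = 6 per season), the smallest that permuting libraries without regard to the bear can give. In reads, therefore, HIF3A gained on HIF1A while EPAS1 lost ground to it.

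Among the hydroxylases the ratio of EGLN3 to EGLN1 was 0.515 to 1.21 in summer (median 0.815) and 0.266 to 0.492 in winter (median 0.411). It fell by 1.03 on the log2 scale (exact permutation p = 0.00216, adjusted p = 0.00433, n = 6 per season) and was lower in 6 of 6 bears. The ratio of EGLN2 to EGLN1 fell by 0.87 (exact permutation p = 0.0260, adjusted p = 0.0260, n = 6 per season), in 5 of 6 bears. This last call was lost without bear 1305, 1316 or 1509 (adjusted p = 0.0714, 0.0873 and 0.0952) and without the winter library of bear 1509 alone (0.0519). Exact sign flips of the 6 paired differences, whose smallest p is 0.0312, gave an adjusted p of 0.0625 for each of the 4 ratios. Before adjustment, the sign-flip p was 0.0312 for HIF3A/HIF1A and EGLN3/EGLN1 and 0.0625 for EPAS1/HIF1A and EGLN2/EGLN1.

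**Figure D3:**
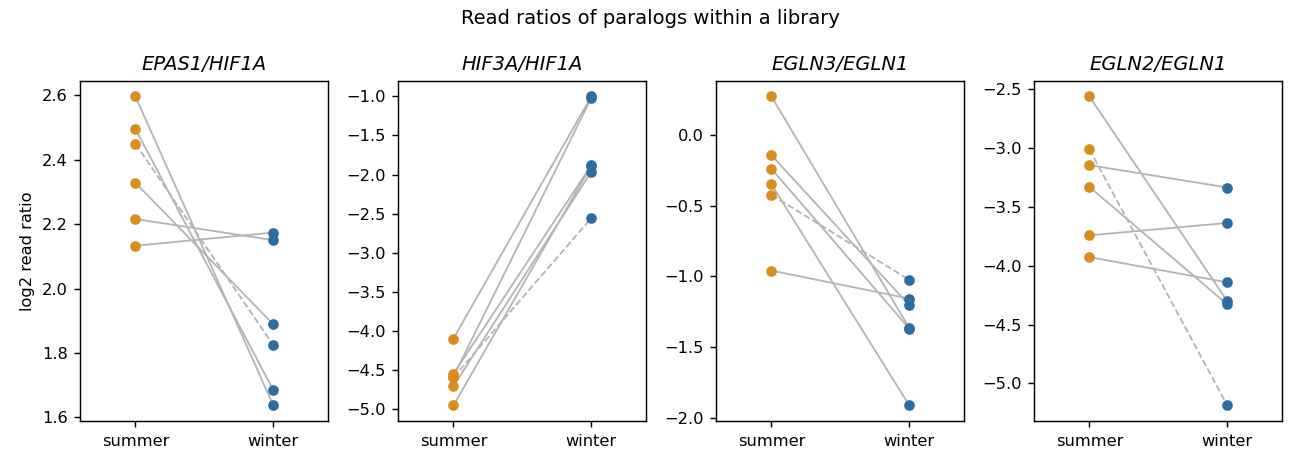
Log2 ratio of the reads of paralogous genes within each library (vertical axis), with summer in orange, winter in blue and a line for each bear, dashed for bear 1509. The HIF3A/HIF1A ratio rose and the EGLN3/EGLN1 ratio fell in 6 of 6 bears.

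The partners of VHL in its ubiquitin ligase are the elongins, a cullin and RBX1. Of these 4 genes, 1 was called higher (25%) and 0 lower in edgeR, against 19.6% and 19.9% of all genes. DESeq2 and the unadjusted p under 0.05 also gave 0 lower. ELOC, the elongin that binds VHL directly, rose from 81.2 ± 10.9 to 132 ± 21.4 CPM (SD, n = 6 bears), in log2 terms a change of 0.70 ± 0.13 (SE, adjusted p = 7.64e-04) and higher in 6 of 6 bears. CUL2, the cullin of the complex, stood at 0.02 (adjusted p = 0.883).

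Of 19 adaptors and proteins that bear on the stability of HIF alpha, 6 were higher and 3 lower, with a median log2 fold change of 0.18. These are 31.6% higher and 15.8% lower, against 19.6% and 19.9% of all genes. UCHL1, a deubiquitinase, rose by 0.95 (adjusted p = 2.29e-04), HSP90AB1, a chaperone, by 0.73 (adjusted p = 7.78e-04) and RACK1, a scaffold protein that competes with that chaperone for HIF1A, by 0.65 (adjusted p = 0.00696) in log2 units, with 6 of 6 bears each. STUB1, a chaperone-linked ubiquitin ligase, fell by 0.60 (adjusted p = 0.00862) in 6 of 6 bears. WTIP, at −0.48 (adjusted p = 0.0213), and COMMD1, at −0.38 (adjusted p = 0.0223), were called lower too. Without bear 1305, 1316 or 1512 the adjusted p of WTIP was 0.0505, 0.0622 and 0.0601 and that of COMMD1 0.0585, 0.0630 and 0.0619, and without bear 1511 that of WTIP was 0.0530.

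Among 12 coactivators and relatives of CITED2, 4 were higher and 4 lower (33.3% each, against 19.6% and 19.9% of all genes). The acetyltransferase CREBBP rose by 0.72 ± 0.18 (SE, adjusted p = 0.00517), NCOA1 by 0.71 (adjusted p = 9.50e-05) and NCOA2 by 0.64 (adjusted p = 3.53e-04) in log2 units, with 6 of 6 bears each. EP300, the close relative of CREBBP, was at 39.7 ± 12.03 CPM in summer and 46.3 ± 6.90 CPM in winter (SD, n = 6 bears), in log2 terms a change of 0.22 (adjusted p = 0.351); it was named after its value was seen. PKM fell by 1.09 (adjusted p = 1.58e-04) in 6 of 6 bears. Its product is best known as the last enzyme of glycolysis and is counted here for a reported role as a HIF coactivator. CITED1, a relative of CITED2 with only 9 to 104 reads per library, fell by 1.20 (adjusted p = 0.0105). CDK8, a Mediator kinase, was at −0.46 (adjusted p = 0.0230), but at 0.0660, 0.0579, 0.0746 and 0.0720 without bear 1305, 1316, 1511 or 1512.

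Other factors of the bHLH-PAS family, to which the HIF subunits belong, gave 0 of 12 higher and 1 lower (8.33%) in edgeR. Over all genes these shares were 19.6% and 19.9%. Of the 12, the unadjusted p under 0.05 gave 1 higher and 1 lower, and DESeq2 called 0. Blocking by bear gave 1 higher and 1 lower in edgeR, and limma voom called 2 higher and 0 lower. ARNTL (BMAL1), a core factor of the circadian clock named after its value was seen, was at 7.73 ± 7.28 CPM in summer and 13.7 ± 4.36 CPM in winter (SD, n = 6 bears), higher in 5 of 6 bears. Its log2 change was 0.82 ± 0.53 (SE, adjusted p = 0.235) without the block and 1.29 ± 0.34 (SE, adjusted p = 0.0122) with it, and 3 of 15 alternatives called it. The gene called lower was SIM1, with 62 reads in all summer libraries, 40 of them in a single library, and 2 in all winter libraries. At 0 reads in 8 of 12 libraries it was not called in DESeq2 (adjusted p = 0.148, or 0.866 with the replicate block), in limma voom (0.448) or without bear 1305 (0.0868) or 1512 (0.0510). ARNT2, the paralog of ARNT, stood at −0.07 (adjusted p = 0.821) and was named after its value was seen.

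Of 66 genes chosen as known HIF targets, 61 were tested. In winter 13 were called higher and 22 lower, with a median log2 fold change of −0.19. Over all genes, 19.6% were called higher and 19.9% lower. The called targets went in both directions, and whether the targets differed from genes at large was not tested. They are described below by function.

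**Figure D4:**
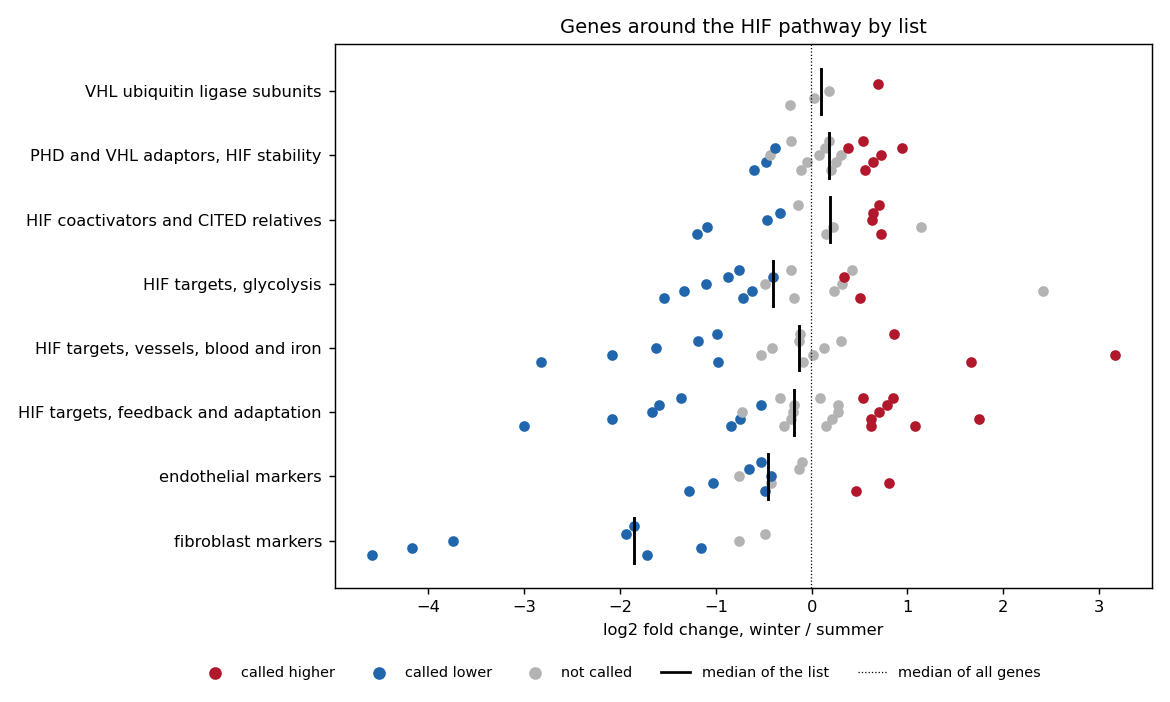
Winter/summer log2 fold change (horizontal axis) of the genes of each list, red where called higher, blue where called lower and grey where not called, with the list's median as a black bar and the median of all genes dotted. Glycolysis targets lie mostly to the left, with 8 called lower and 2 higher, whereas the feedback and adaptation targets split evenly, 8 to 8.

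Of the 17 glycolysis targets tested, 2 were higher and 8 lower, with a median log2 fold change of −0.41. These are 11.8% higher and 47.1% lower, against 19.6% and 19.9% of all genes. PGK1, which makes ATP in the lower part of glycolysis, fell from 1147 ± 108 to 456 ± 115 CPM (SD, n = 6 bears), in log2 terms a change of −1.33 ± 0.16 (SE, adjusted p = 4.16e-05). SLC16A3, which exports lactate, fell by 1.54 (adjusted p = 0.00105), and PFKP, a phosphofructokinase, by 1.10 (adjusted p = 0.0130, or 0.0589 without bear 1305), both in 6 of 6 bears. PDK1, the kinase that shuts pyruvate out of the mitochondrial dehydrogenase, rose by 0.51 ± 0.11 (SE, adjusted p = 0.00229) in 6 of 6 bears. GPI was called higher at 0.34 (adjusted p = 0.0462), but not with library totals (0.136), without the filter (0.0796) or without bear 1305, 1316, 1317, 1511 or 1512 (0.110, 0.0941, 0.0633, 0.0801 and 0.114). LDHA was not found by symbol.

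Of the 17 vessel, blood and iron targets tested, 3 were higher (17.6%) and 6 lower (35.3%), against 19.6% and 19.9% of all genes. TFRC, the transferrin receptor, fell from 628 ± 221 to 148 ± 62.6 CPM (SD, n = 6 bears), in log2 terms a change of −2.08 ± 0.32 (SE, adjusted p = 2.30e-04), and CP, the ferroxidase ceruloplasmin, fell by 2.83 (adjusted p = 3.42e-04). EDN1, the vasoconstrictor endothelin, fell by 1.63 (adjusted p = 0.00358) with 4 to 58 reads per library. VEGFA, the HIF target that drives vessel growth, was named after its value was seen. It fell from 246 ± 26.6 to 108 ± 19.7 CPM (SD, n = 6 bears), in log2 terms a change of −1.19 ± 0.12 (SE, adjusted p = 1.89e-05) and lower in 6 of 6 bears.

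In the same list ANGPTL4, an inhibitor of lipoprotein lipase that also answers to fatty acid receptors, rose from 1.41 ± 1.46 to 12.6 ± 5.36 CPM (SD, n = 6 bears), in log2 terms a change of 3.17 ± 0.53 (SE, adjusted p = 4.66e-04). PGF, a growth factor of the VEGF family, rose by 1.66 (adjusted p = 8.77e-05), both in 6 of 6 bears. HMOX1, which breaks down heme, rose by 0.86 (adjusted p = 0.0154) in 5 of 6 bears, and its adjusted p was 0.0609 without bear 1305 and 0.0585 without bear 1316. EPO and TF had 1 and 9 reads in all 12 libraries and were not tested.

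The 27 targets tested for feedback and adaptation split into 8 higher and 8 lower (29.6% each, against 19.6% and 19.9% of all genes). Those that rose the most were STC2, a secreted glycoprotein, by 1.75 (adjusted p = 1.46e-04), RORA, a nuclear receptor, by 1.08 (adjusted p = 0.00173), and BNIP3L, a mitophagy receptor, by 0.85 ± 0.094 (SE, adjusted p = 2.58e-05) in log2 units, with 6 of 6 bears each. BNIP3L went from 26.8 ± 2.77 to 48.4 ± 3.81 CPM (SD, n = 6 bears). Those that fell the most act on collagen. LOXL2 fell by 3.00 (adjusted p = 9.03e-05), LOX by 2.08 (adjusted p = 0.00946) and PLOD1 by 1.67 ± 0.13 (SE, adjusted p = 3.79e-06). Of the 9 fibroblast markers, 7 were called lower and 0 higher in edgeR. DESeq2 also called 7 lower and 0 higher, and the unadjusted p under 0.05 gave 9 lower and 0 higher. The fibroblast markers were at a summed 4376 to 11587 CPM in summer and 306 to 1894 CPM in winter. Their part in the falls of these collagen enzymes was not tested.

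Markers of other cells were examined as well. Over all genes, 19.6% were called higher and 19.9% lower. Of the 8 macrophage markers, 6 were called lower and 0 higher in edgeR, and the same by DESeq2. The unadjusted p under 0.05 gave 7 lower and 0 higher. The sums of the macrophage markers were 98.5 to 154 CPM in summer and 41.2 to 81.6 CPM in winter. Without bear 1305 or 1317 the macrophage count called lower was 3. Of 5 adipocyte markers, 1 was higher and 1 lower, with sums of 297 to 1376 CPM and 216 to 459 CPM. The 3 red blood cell markers tested had 0 calls in edgeR (0 by DESeq2 and 0 by the unadjusted p under 0.05), or 1 higher without bear 1509, at 3.17 to 65.7 CPM in summer and 34.4 to 56.8 CPM in winter. Of 6 nervous system markers 1 was lower, with sums of 18.3 to 44.8 CPM in summer and 6.90 to 135 CPM in winter. Of the 13 myofibre markers 2 were higher and 5 lower. The count lower was 3 without bear 1305 or 1316, and 6 without bear 1317, with library totals or by DESeq2. Unblocked DESeq2 called 3 higher. The part of these cells in the results for the 10 genes was not tested.

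To ask which genes followed each alpha subunit from bear to bear, deviations from the season means were correlated over the 12 libraries with those of 10344 other genes. For EPAS1 the highest Pearson correlations were with ADAMTSL4 (0.94), MAGED2 (0.91) and PTPMT1 (0.90), for HIF1A with SEPT2 (0.91), CALR (0.89) and DAB2 (0.89), and for HIF3A with WDR24 (0.95), HRCT1 (0.95) and KLC2 (0.94). Each value is the highest of many and describes these libraries, which share 6 animals and the library depth. Of the 3 genes most like HIF3A, HRCT1 rose by 1.13 in log2 units (adjusted p = 0.00948), while KLC2 stood at 0.18 (adjusted p = 0.329) and WDR24 at −0.35 (adjusted p = 0.298). Of those most like EPAS1, ADAMTSL4 fell by 1.34 (adjusted p = 5.74e-04), MAGED2 rose by 0.61 (adjusted p = 0.00831) and PTPMT1 stood at −0.13 (adjusted p = 0.408). SEPT2, CALR and DAB2 fell by 0.27, 0.47 and 0.99 (adjusted p = 0.0401, 9.14e-04 and 2.85e-04), where HIF1A was not called.

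**Figure D5:**
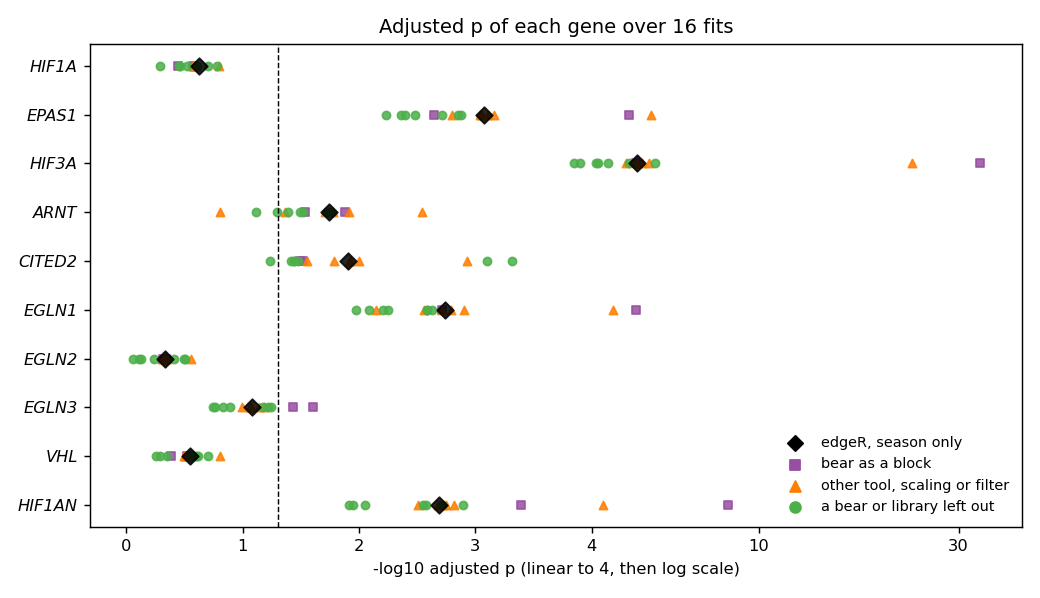
Adjusted p of each gene, as −log10 (horizontal axis, linear to 4 and logarithmic above), in the 16 fits, with the dashed line at 0.05. EPAS1, HIF3A, EGLN1 and HIF1AN lie to the right of the line in every fit, HIF1A, EGLN2 and VHL to the left in every fit, and ARNT, CITED2 and EGLN3 on both sides.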

How the data were processed

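Muscle mRNA was measured in 12 libraries, 6 per season, and samples were grouped by season and bear from their titles. The authors made stranded poly-A libraries, read single ends of 50 bases, aligned them to ASM358476v1 with TopHat2 2.1.1 (alignments with more than 3 mismatches discarded) and counted reads per gene, with the strand setting of the kit, in featureCounts 1.6.2. Libraries were run on a pair of lanes, and which lane held which library is not given in the sources used here. The deposited values are these counts, neither normalized nor filtered, and 0 lines lack a gene name. The processing notes of the submitters name Bowtie2 2.2.9.

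Genes with fewer than 30 reads over the 12 libraries (0.019% of reads) were set aside. TMM factors scaled the libraries, and the edgeR fit (edgeR 4.0.16 in R 4.3.3) had season as its only term. Alternatives used DESeq2 1.42.0 and limma 3.58.1. CPM values are TMM-scaled, and differences of single bears are of log2 CPM with a prior count of 2. Read ratios had 0.5 added to each count. The fits were also run on simulated counts drawn without an effect of the bear, which cannot check how the fits treat the pairing.

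The numbers in the titles name the same animals in both seasons. After the season means were subtracted, both libraries of 1 animal correlated with r of 0.0903 to 0.344, whereas 30 pairs of different animals had a median r of −0.0634. The highest r between different animals was 0.142, above the lowest within an animal, so these sets of values overlapped. The lowest chi-square per gene between libraries of a season was 42.3, where sampling noise gives about 1.

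The members and lists were chosen with earlier results of these data known. Named by rule are all 10 members and, of each pathway list, up to 3 called genes with the largest rise and up to 3 with the largest fall. Some genes were named outside this rule, among them EP300, ARNTL, ARNT2, VEGFA, CUL2 and the endothelial markers VWF, CDH5, ERG and CLDN5. For each alpha subunit the 3 genes most like it were named, among those with a symbol that is not a LOC number whose mean reached 1 log2 CPM. The alternatives were a replicate block for the bear, DESeq2 unblocked and blocked, limma voom, RLE factors, library totals, no filter, filterByExpr, stricter limits, each bear left out, and the winter library of bear 1509 left out. The gene table at hand is of another assembly than the counts, so no coordinates, sequences or lengths were used.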

Additional observations from a re-analysis of the deposited data

Results flagged for a closer look

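One library stood apart by the gap of the highest or lowest library to its neighbour relative to the range, among 28 sets of 6 libraries examined (10 genes and 4 ratios in 2 seasons). EGLN2 lay at 1.79 log2 CPM in the winter library of bear 1509 and at 2.82 to 3.36 log2 CPM in the other winter libraries, a gap of 0.657 of the range where the critical value is 0.625. Chance alone flags about 1 in 20 such sets.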

How the results depend on the processing

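None of the 10 genes, the 4 ratios or the other genes named by rule changed direction under the alternatives run. Of the genes not called, CUL2 ran from −0.06 to 0.06 and ARNT2 from −0.17 to 0.05 in log2 units, so neither has a direction. The median of the nervous system markers went from −0.31 to 1.11 without bear 1305 and that of the adipocyte markers from −0.93 to 0.97 without bear 1316, and the cause was not tested. The 15 other fits and the stricter limits left 152 of 160 calls or non-calls of the 10 genes as they were, and for the other named genes 460 were as before and 34 lost their call (SIM1 was not tested under filterByExpr or without bear 1316). Under the stricter limits, 2077 genes were called higher, 2077 lower and 2 of the 10 genes higher, where an adjusted p below 0.05 gave 3386, 3445 and 4, which follows from the limits themselves. With the bear as a replicate block, 3392 genes were higher and 3663 lower, as were 4 and 3 of the 10 genes, the third being EGLN3, and no other call among the 10 changed. Paired sign flips left the shifts of the ratios at −0.48 for EPAS1/HIF1A, 2.87 for HIF3A/HIF1A, −1.03 for EGLN3/EGLN1 and −0.87 for EGLN2/EGLN1, but each adjusted p was 0.0625 (6 pairs allow no p under 0.0312). The EGLN2/EGLN1 shift ran from −1.06 to −0.61 with 1 bear left out and was −0.66 without the winter library of bear 1509; where its call was lost, the cause was not tested. Library totals moved the median of all genes by under 0.1 on the log2 scale, and of the 10 genes ended only the call of ARNT. HIF3A in summer, CITED2, EGLN2 and VHL rest on the fewest reads. For these libraries, intervals give the uncertainty of the fitted log2 fold change and not the range of single bears. That of CITED2 ran from 0.52 to 2.11, while its bears ran from −1.37 to 2.45.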
